A study of Homo sapiens with 4 samples.

Results

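The genes described here are NQO1, members of the thioredoxin system, and enzymes that make NADPH or stand next to them in the pentose phosphate pathway. There are 9 of them (NQO1, TXNRD1, TXN, SRXN1, PRDX1, ME1, PGD, TALDO1 and TKT) among 17687 genes measured, each read by the 1 array feature that the platform annotation gives to its symbol alone. They were measured in NB4-R4, a human line of acute promyelocytic leukaemia cells derived from NB4 and resistant to all-trans retinoic acid. In this leukaemia the cells are blocked at the promyelocyte stage of granulocyte development. One group received MK-8776, an inhibitor of the checkpoint kinase CHK1, at 4 µM for 96 h, and the other received the vehicle DMSO for the same time, with 2 arrays each. Each group thus holds biological replicates, as the labels call them, of 1 resistant subclone. How the cultures were kept apart is not stated, and p-values cover the spread among these 4 samples alone, which may be technical. The 9 genes were chosen with the MK-8776 against DMSO values of the same 4 arrays in view. Their levels and changes are therefore a description and carry no test.

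NQO1 is a flavoenzyme of the cytosol that reduces quinones in a single step of 2 electrons, which avoids the reactive semiquinone, and it takes its electrons from NADH or NADPH. The thioredoxin system is a relay of thiols: thioredoxin reductase (TXNRD1), a selenoprotein, passes electrons from NADPH to thioredoxin (TXN), which reduces peroxiredoxins such as PRDX1 and many other proteins, while sulfiredoxin (SRXN1) rescues peroxiredoxins that peroxide has over-oxidised. The NADPH comes in part from malic enzyme (ME1) and from 6-phosphogluconate dehydrogenase (PGD) of the pentose phosphate pathway, whose sugar-rearranging enzymes transaldolase (TALDO1) and transketolase (TKT) link it to glycolysis. In many cell types these genes are targets of the transcription factor NRF2, which binds antioxidant response elements together with small MAF proteins. Myeloid cells also spend NADPH in the oxidative burst.

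The stretches just before the gene starts are shown because they are the regulatory sequence that the 4 genes with the largest changes could be compared on. They come from RefSeq (GRCh38.p14), which gave 9 promoters for 8 of the 9 genes (all but PRDX1), TXNRD1 having 2, each running from 250 bases before to 50 after the annotated start. The core of an antioxidant response element was searched on both strands in its usual form, TGACNNNGC, and with G for the C, as TGAGNNNGC. The forms differ in 1 letter, so no stretch can match both on 1 strand, and no matches overlapped in these promoters. Capitals mark the matches, positions are counted back from the start, and each sequence is written 5′ to 3′ on the strand of its gene. NQO1 is shown from position -150 to -1 (chr16:69726561-69726710, minus strand). The others are shown with 25 bases on each side of the match. These are ME1 (chr6:83431155-83431213, minus strand), PGD (chr1:10398838-10398896, plus strand) and both TXNRD1 promoters (chr12:104215655-104215713 and chr12:104286905-104286963, plus strand).
NQO1: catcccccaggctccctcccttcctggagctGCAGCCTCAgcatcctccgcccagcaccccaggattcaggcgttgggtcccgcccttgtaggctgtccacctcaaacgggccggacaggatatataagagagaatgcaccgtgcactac
ME1: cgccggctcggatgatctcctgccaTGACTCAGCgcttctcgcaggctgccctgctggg
PGD: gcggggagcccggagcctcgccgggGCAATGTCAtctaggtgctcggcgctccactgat
TXNRD1 promoter 1: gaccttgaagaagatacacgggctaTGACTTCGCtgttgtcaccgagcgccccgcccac
TXNRD1 promoter 2: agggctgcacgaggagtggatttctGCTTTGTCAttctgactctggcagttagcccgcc

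In these lines ME1 and the first TXNRD1 promoter carry the TGACNNNGC core on the gene's own strand, at -137 and -99. PGD and the second TXNRD1 promoter carry it on the opposite strand, at -201 and -102. NQO1 carries the G form on the opposite strand, at -119, and the second TXNRD1 promoter has that form at -198, outside the stretch shown. The first TXNRD1 promoter holds a further TGACNNNGC match across the start, from -8 to 1. ME1 holds a further one wholly after the start, from 12 to 20. Neither is shown. TGACNNNGC occurred in 4 of the 9 promoters, which belong to 3 genes, against 13.3% of the 35116 promoters in the table. TGAGNNNGC occurred in 2 of the 9, against 18.3% of all. TXN, SRXN1, TALDO1 and TKT had neither form in this window, which says nothing about elements further away. The NQO1 element best known from earlier work lies upstream of the window used here. A match is a stretch of letters and no evidence of binding.

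**Figure D1:**
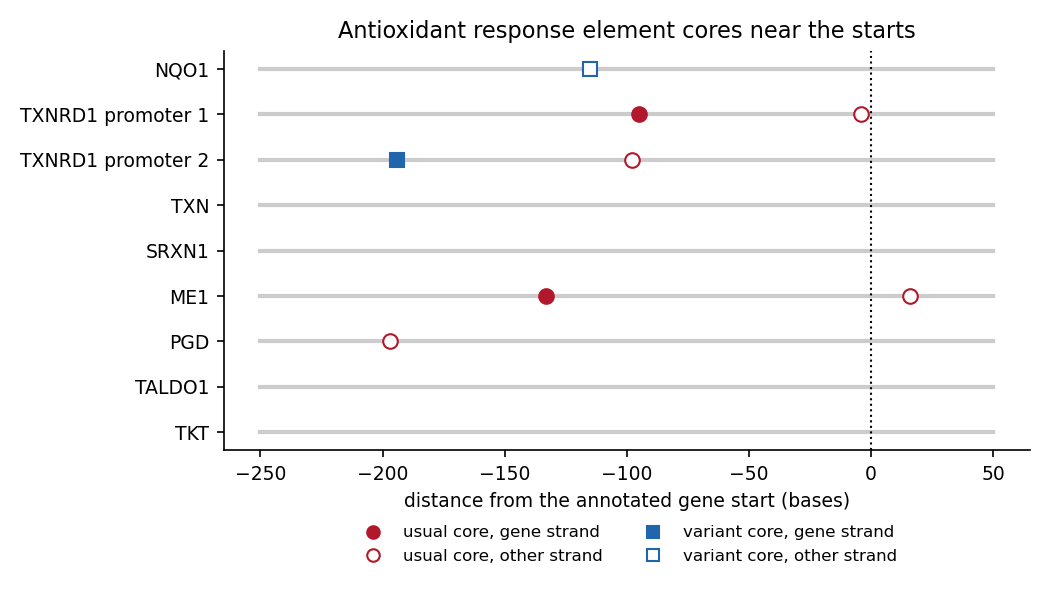
Positions of the antioxidant response element cores in the 9 RefSeq promoters, in bases from the annotated gene start. Circles are the usual core (TGACNNNGC), squares the variant core with G (TGAGNNNGC), filled on the gene's strand and open on the other. Matches lie in the promoters of NQO1, TXNRD1, ME1 and PGD.

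The data are log2 expression values made with RMA, so 1 unit is a 2-fold difference. RMA makes arrays alike in distribution, and a change of all RNA at once would not show. The array medians lay between 5.76 and 5.79. Correlation across genes was 0.993 between the MK-8776 arrays and 0.993 between the DMSO arrays, against 0.981 to 0.989 across groups. All 9 genes lay above the median of all values (5.77) on all 4 arrays, with 6.02 the lowest single value, so none was read at the dim end of the range. Group values are given as mean ± SD (n = 2 each), and each change is the MK-8776 mean minus the DMSO mean with its standard error (SE) from a limma fit across all genes. That fit draws the spread of each gene toward the spread common to all genes. The common spread weighs 6.3 degrees of freedom, against 2 from the gene itself. An SE can thus be larger or smaller than a gene's own replicates would give.

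After MK-8776 the largest differences among the 9 genes were in NQO1, ME1, TXNRD1 and PGD, which were higher by 4.18, 2.33, 1.55 and 1.465 on the log2 scale. SRXN1 and TALDO1 differed by a little under 1 unit, and TXN, PRDX1 and TKT by less. Within the thioredoxin relay the reductase gene had the largest change, and within the pentose phosphate pathway PGD, the NADPH-making step, had a larger change than TALDO1 and TKT. These differences between genes were not tested. The arrays measure RNA of the whole culture, so fewer cells of a kind and less RNA per cell cannot be told apart.

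NQO1 (chromosome 16, 69709401 to 69726560, minus strand, GRCh38.p14) measured 15.28 and 14.20 in MK-8776 cells, against 11.07 and 10.05 in DMSO cells. The groups did not overlap, and a space of 3.13 lay between the lower MK-8776 array and the higher DMSO array. In both groups replicate 1 was the higher, by 1.08 in MK-8776 cells and by 1.02 in DMSO cells. This is the widest within-group spread of the 9 genes. The means were 14.74 ± 0.76 and 10.56 ± 0.72 in MK-8776 and DMSO cells, a change of 4.18 (SE 0.42) or 18.1-fold. NQO1 ranked 8 among the 17687 genes ordered from the largest rise down.

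TXNRD1, which encodes the cytosolic thioredoxin reductase (chromosome 12, 104215779 to 104350307), measured 14.79 and 14.61 in MK-8776 cells, against 13.31 and 12.99 in DMSO cells. Both MK-8776 arrays were higher by at least 1.30, and the spread within a group was small beside that. The means were 14.70 ± 0.13 in MK-8776 cells and 13.15 ± 0.23 in DMSO cells, a change of 1.55 (SE 0.22) or 2.93-fold, at rank 110.

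TXN, the thioredoxin gene itself (chromosome 9, 110243810 to 110256507), measured 14.10 and 14.49 in MK-8776 cells, against 13.40 and 14.07 in DMSO cells. The groups all but touched, with 0.03 between them, and replicate 2 was the higher in both. The change of 0.56 had an SE of 0.28 and was smaller than the 0.67 that separated the DMSO arrays.

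SRXN1, the sulfiredoxin gene (chromosome 20, 646615 to 653200), measured 7.26 and 6.99 in MK-8776 cells, against 6.02 and 6.32 in DMSO cells. The groups were 0.67 apart, which is wider than the spread within either. The change was 0.955 (SE 0.22), or 1.94-fold. PRDX1, which encodes an abundant cytosolic peroxiredoxin (chromosome 1, 45511051 to 45522890), measured 13.78 and 13.38 in MK-8776 cells, against 13.08 and 13.29 in DMSO cells. Its groups were only 0.09 apart, and the change of 0.395 (SE 0.23) was about as large as the 0.40 between the MK-8776 arrays.

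ME1, the cytosolic malic enzyme gene (chromosome 6, 83210402 to 83431051, minus strand), measured 12.25 and 11.75 in MK-8776 cells, against 9.81 and 9.53 in DMSO cells. The groups lay 1.94 apart, and replicate 1 was the higher in both. The means were 12.00 ± 0.35 in MK-8776 cells and 9.67 ± 0.20 in DMSO cells, a change of 2.33 (SE 0.25) or 5.03-fold, at rank 40.

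PGD (chromosome 1, 10399064 to 10420511), whose enzyme makes NADPH while it decarboxylates 6-phosphogluconate, measured 12.33 and 11.70 in MK-8776 cells, against 10.56 and 10.54 in DMSO cells. The DMSO arrays were almost alike, so nearly all of the spread lay between the MK-8776 arrays. The change was 1.465 (SE 0.25) or 2.76-fold, at rank 124.

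TALDO1, the transaldolase gene (chromosome 11, 747464 to 765012), measured 10.97 and 11.00 in MK-8776 cells, against 9.91 and 10.20 in DMSO cells. The groups lay 0.77 apart, with a change of 0.93 (SE 0.21), or 1.905-fold. TKT, the transketolase gene (chromosome 3, 53224712 to 53256022), measured 14.43 and 14.56 in MK-8776 cells, against 14.29 and 14.38 in DMSO cells. Its change of 0.16, the smallest of the 9, was smaller than its limma SE of 0.20. The SDs of TKT itself were smaller, 0.09 in MK-8776 cells and 0.06 in DMSO cells.

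**Figure D2:**
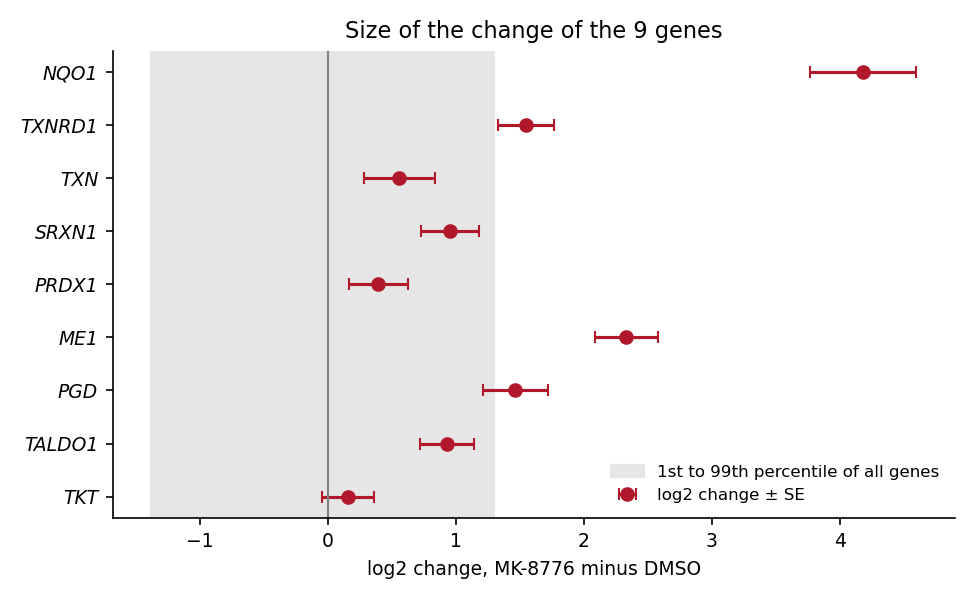
Log2 change (MK-8776 minus DMSO) of each of the 9 genes, with bars of 1 SE from the limma fit. The grey band runs from the 1st to the 99th percentile of all 17687 genes (-1.38 to 1.296). NQO1, ME1, TXNRD1 and PGD lie beyond the band, and the other 5 genes lie within it.

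All 9 genes were higher on both MK-8776 arrays than on both DMSO arrays, where 24.0% of all genes were. In the limma fit, with Benjamini-Hochberg adjustment over all genes and a threshold of 0.05, NQO1, TXNRD1, ME1 and PGD lay past the threshold and the other 5 did not. Of all genes, 1.66% rose past it. Since the genes were chosen on this contrast, nothing is read from these shares. Without DMSO replicate 1, DMSO replicate 2 or MK-8776 replicate 1 the number past the threshold was 0 each time, with 6 to 7 of the 9 at an unadjusted p under 0.05, and without MK-8776 replicate 2 it was 1, NQO1. The median change of the 9 was 0.955, against 0.005 over all genes.

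The close relatives of these genes did not share one direction. They are given as values and were chosen after their values were seen. Among them TXNRD3, ME3 and TKTL2 were dim, with all 4 arrays below the median of all values (5.77). Their group means were 4.18, 3.715 and 4.10 in MK-8776 cells, against 4.88, 4.32 and 3.665 in DMSO cells. Directions at this level are uncertain. For the mitochondrial thioredoxin reductase gene TXNRD2 the change was 0.51 (SE 0.23) and for TXNRD3 it was -0.70 (SE 0.30), beside 1.55 for TXNRD1. The mitochondrial thioredoxin gene TXN2 had a change of -0.225 (SE 0.24), beside 0.56 for TXN. Among the other peroxiredoxin genes the change was -0.535 for PRDX2, -0.52 for PRDX3, -0.97 for PRDX4 and -0.11 for PRDX6, beside 0.395 for PRDX1. Mitochondrial malic enzyme 2 (ME2) measured 12.38 and 12.66 in MK-8776 cells, against 12.52 and 12.52 in DMSO cells, so the means were equal, and ME3 had a change of -0.605 (SE 0.27), beside 2.33 for ME1. The transketolase-like gene TKTL1 had a change of -0.595 (SE 0.25) and TKTL2 one of 0.435 (SE 0.27), beside 0.16 for TKT. None of these relatives passed the threshold in the limma fit (adjusted p from 0.0707 for PRDX4 to 1 for ME2), and the difference from the named gene was not tested.

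A further 7 lists of genes around the same chemistry were followed with the limma fit, in which 3.69% of all genes passed, 1.66% rising and 2.02% falling. In the same fit 3331 of the 17687 genes had an unadjusted p under 0.05, the background for such counts below. Of 26 measured partners of the thioredoxin system, 1 rose, 2 fell and 23 did not pass. MSRB1, a selenoprotein that uses thioredoxin to repair oxidised methionine, rose by 1.01 (SE 0.21, adjusted p = 0.0386), with 14.86 and 14.72 in MK-8776 cells, against 13.87 and 13.69 in DMSO cells. MSRB3, a methionine sulfoxide reductase of the endoplasmic reticulum and mitochondria, fell by 1.625 (SE 0.21, adjusted p = 0.00785, limma). It measured 4.27 and 4.41 in MK-8776 cells, against 6.05 and 5.88 in DMSO cells. SESN3, a sestrin gene, fell by 1.885 (adjusted p = 0.0228, limma), with MK-8776 arrays at 3.82 and 4.85, against 6.14 and 6.30 in DMSO cells. In MK-8776 cells MSRB3 and SESN3 lay below the median of all values (5.77), so the sizes of these falls are uncertain. The median of the list was -0.05, and 13 of its genes were higher and 13 lower.

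The other NADPH makers that passed were lower in MK-8776 cells. Of 15 measured, 0 rose, 2 fell and 13 did not pass, with 6 at an unadjusted p under 0.05. IDH2, the mitochondrial NADP-dependent isocitrate dehydrogenase gene, fell by 1.11 (SE 0.24, adjusted p = 0.0453), with 11.01 and 11.40 in MK-8776 cells, against 12.13 and 12.50 in DMSO cells. With all features tested, IDH2 missed the threshold at adjusted p = 0.0553. MTHFD1, a folate enzyme of the cytosol that also makes NADPH, fell by 1.31 (SE 0.27, adjusted p = 0.0385), with 10.48 and 11.20 in MK-8776 cells, against 12.08 and 12.22 in DMSO cells. The list's median was -0.145.

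The list of other pentose phosphate genes holds sugar-phosphate steps of the pathway and the step that draws ribose from it, and most of them were lower. Of 9 measured, 0 rose, 2 fell and 7 did not pass, with 4 at an unadjusted p under 0.05, and 8 of the 9 were lower whatever the p, while 50.6% of all genes were higher. In 5 of the 9 both MK-8776 arrays lay below both DMSO arrays, where 4275 of the 17687 genes did. In the other 4 the groups overlapped. The pathway genes PGLS (change 0.21, adjusted p = 0.807) and H6PD (-1.02, adjusted p = 0.128, limma) were counted with the other NADPH makers and are not in this tally. RPIA, the ribose 5-phosphate isomerase gene, fell by 1.315 (SE 0.28, adjusted p = 0.0403), with 6.91 and 7.45 in MK-8776 cells, against 8.22 and 8.77 in DMSO cells. PRPS2, which turns ribose 5-phosphate into the activated sugar for nucleotides, fell by 1.145 (SE 0.21, adjusted p = 0.0272), with 10.57 and 10.81 in MK-8776 cells, against 11.79 and 11.88 in DMSO cells. The list's median was -0.50, beside changes of 1.465, 0.93 and 0.16 for PGD, TALDO1 and TKT.

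Of 14 other quinone and flavin reductases measured, 0 passed in the limma fit, with 5 at an unadjusted p under 0.05 and a median of 0.05. The 2 with the largest change were CBR4, a mitochondrial reductase gene, at -1.07 (adjusted p = 0.0904), and NQO2, the paralogue of NQO1, at 0.895 (SE 0.24, adjusted p = 0.0910). NQO2 measured 10.39 and 9.89 in MK-8776 cells, against 9.37 and 9.12 in DMSO cells, so its groups did not overlap. Both passed with a variance trend (adjusted p = 0.0448 and 0.0428). Of 11 genes that remove peroxide and superoxide, 0 passed in the limma fit, with 1 at an unadjusted p under 0.05 and a median of 0.10. The endoplasmic reticulum peroxidase gene GPX7 was at -0.80 (adjusted p = 0.163) and the secreted glutathione peroxidase gene GPX3 at 0.235 (adjusted p = 0.673).

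TXNRD1 needs selenocysteine, so the genes of selenoprotein synthesis and the other selenoproteins were read beside it. Of 19 measured, 2 rose, 0 fell and 17 did not pass, with a median of 0.065. Whatever the p, 11 were higher and 8 lower, with 6 at an unadjusted p under 0.05 (limma). SELENOW, a small thioredoxin-like selenoprotein gene, rose by 1.805 (SE 0.31, adjusted p = 0.0223), with 10.80 and 10.50 in MK-8776 cells, against 8.39 and 9.30 in DMSO cells. SECISBP2L, a relative of the protein that reads the selenocysteine signal in messages, rose by 1.30 (SE 0.21, adjusted p = 0.0192), with 12.64 and 12.34 in MK-8776 cells, against 11.22 and 11.16 in DMSO cells. SECISBP2, the gene of that protein itself, was at -0.77 and did not pass (adjusted p = 0.209, limma). It measured 7.54 and 8.37 in MK-8776 cells, against 8.88 and 8.57 in DMSO cells.

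Of 21 measured genes of NRF2, its repressor KEAP1 and other known targets, 8 rose, 0 fell and 13 did not pass, with a median of 0.525. Whatever the p, 16 were higher and 5 lower, and the changes ran from -0.89 to 6.84. The 6 largest rises were in HMOX1 at 6.84, the cystine transporter gene SLC7A11 at 3.105, the glutathione synthesis gene GCLM at 2.885, the haem transporter gene SLC48A1 at 1.715, AKR1C3 at 1.535 and the epoxide hydrolase gene EPHX1 at 1.16, with adjusted p from 0.000483 for HMOX1 to 0.0378 for EPHX1. HMOX1 measured 11.55 and 10.05 in MK-8776 cells, against 3.92 and 4.00 in DMSO cells. Its DMSO mean of 3.96 lay below 3.97, the lower quartile of the arrays, so the size of its rise is uncertain. AKR1C3 has close paralogues, so how much of its signal is its own is uncertain. The list was drawn up with earlier results of these arrays known and is no independent evidence of a direction.

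**Figure D3:**
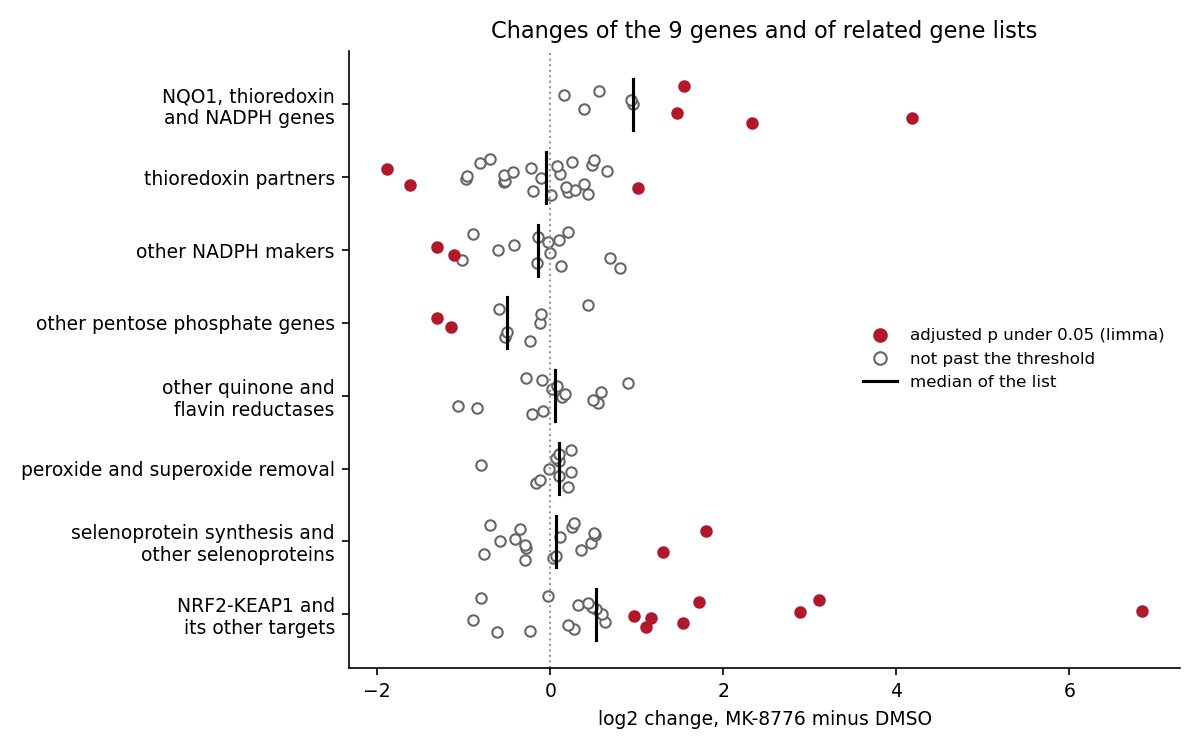
Log2 change (MK-8776 minus DMSO) of each measured gene in the 9-gene set and in 7 related lists. Filled points passed an adjusted p of 0.05 in the limma fit over all genes, open points did not, and black bars are medians. Filled points lie on both sides of 0 in the thioredoxin partners, below 0 in the other NADPH makers and pentose phosphate genes, and above 0 in the NRF2 list.

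The genes whose pattern over the 4 arrays was nearest to that of NQO1 were VNN2, FPR2, S100A8, C5AR1 and S100A9. Likeness was the Euclidean distance between profiles after the mean of the DMSO arrays was taken from each gene, and it was 0.845 for VNN2, 0.890 for FPR2, 0.928 for S100A8, 0.995 for C5AR1 and 1.11 for S100A9. With 4 arrays this ranks genes mainly by the size of their change, and these were among the largest rises of the data set. None of the other 8 genes described here was among the 5. Their changes were 2.33 (ME1) or less, too far from 4.18 to be near on this measure, so their absence says nothing further about likeness to NQO1. NQO1 differed from S100A8 and C5AR1 in its replicates: replicate 1 was 1.08 above replicate 2 among MK-8776 arrays for NQO1, while these differences were -0.02 for S100A8 and -0.04 for C5AR1.

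**Figure D4:**
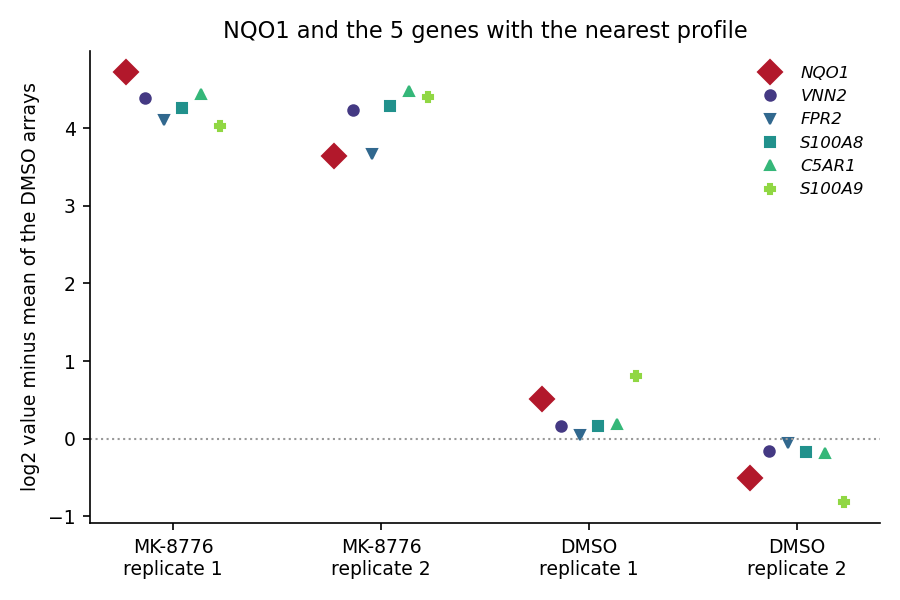
Log2 value minus the mean of the DMSO arrays for NQO1 (diamonds) and the 5 genes with the nearest profile, on each of the 4 arrays. All 6 genes lie well above 0 on both MK-8776 arrays, and NQO1 has the largest difference between the MK-8776 replicates.

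Markers of cell type were read on the same arrays. MPO, the myeloperoxidase of promyelocytes, was bright in both groups, with 14.81 and 15.36 in MK-8776 cells, against 16.09 and 16.27 in DMSO cells. Of 9 measured promyelocyte markers, the granule protease genes CTSG (-2.20, adjusted p = 0.00516, limma) and PRTN3 (-2.005, adjusted p = 0.0193) fell and ANPEP rose by 1.075 (adjusted p = 0.0316). Whatever the p, 7 of the 9 were lower, with a median change of -0.885. Summed over the list, linear RMA values were 115000 to 149000 in MK-8776 cells and 137000 to 154000 in DMSO cells. Such sums are dominated by the features with the highest values, and in the lymphoid and the red cell and megakaryocyte lists below they run against the direction of most genes. Of 8 monocyte and macrophage markers, C1QA and CD14 rose by 1.775 and 1.37 (adjusted p = 0.0164 and 0.0491, limma, the second 0.0572 after quantile normalization and 0.0599 with all features), and 6 of the 8 were higher, with a median change of 0.44. The 2 lower genes, C1QB and CSF1R, were at -0.005 and -0.175 and did not pass. The summed values were 603 to 636 in MK-8776 cells and 321 to 331 in DMSO cells. C1QA measured 8.49 and 8.17 in MK-8776 cells, against 6.19 and 6.92 in DMSO cells, and weighs most in the MK-8776 sums. Among 10 lymphoid markers CD3E fell by 1.38 (adjusted p = 0.0264, limma) and NKG7 rose by 1.225 (adjusted p = 0.0320). Of the 10, 7 were lower and 3 higher, with a median change of -0.07 and sums of 7000 to 7370 in MK-8776 cells and 4630 to 5320 in DMSO cells. Among 8 genes that mark red cell precursors and megakaryocytes, ITGA2B fell by 1.55 (adjusted p = 0.0120, limma) and PPBP rose by 1.82 (adjusted p = 0.0235). Of the 8, 6 were higher and 2 lower, with a median change of 0.33 and sums of 472 to 553 in MK-8776 cells and 728 to 835 in DMSO cells. In the limma fit 0 of 5 eosinophil, basophil and mast cell markers and 0 of 5 stromal markers passed, with 2 of each at an unadjusted p under 0.05. Their median changes were 0.03 and 0.04, and their sums were 3280 to 6730 and 1450 to 1680 in MK-8776 cells, against 3530 to 7250 and 1120 in DMSO cells. MRC1 of the macrophage markers, MS4A1 of the lymphoid markers, and ALAS2 and GP9 of the red cell and megakaryocyte markers had group means below 3.97, the lower quartile of the arrays, in both groups. CD14 and PPBP in DMSO cells and PRTN3 in MK-8776 cells lay below the median of all values (5.77). The sizes of the changes of CD14, PPBP and PRTN3 are therefore uncertain. The part of these markers in the changes of NQO1 and the other 8 genes was not tested.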

How the data were processed

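RNA of 4 NB4-R4 cultures was measured on Affymetrix expression arrays. The authors deposited log2 expression values made with RMA (background correction, normalization between arrays, summary of probes per feature), naming genome build hg38, per the submitters' processing notes. Its version and settings are not given here, and the log2 scale was taken from the values (2.16 to 18.54). Scanner files were not used, so there is no detection call, and the number of arrays limits the precision.

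Of 21448 features, 17709 had 1 gene symbol, 0 several and 3739 none. Symbols were updated by gene number through RefSeq (GRCh38.p14). For 20 genes with several features the brightest was taken, leaving 17687 genes, and each of the 9 genes described had 1 feature. The values were fitted with limma 3.58.1 (R 4.3.3, lmFit and eBayes, MK-8776 minus DMSO, two-sided) without a filter, adjusted by Benjamini-Hochberg over all genes, and the code was tested on simulated data. An exact permutation test of 2 against 2 cannot go below p = 0.333.

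The members, the lists, the tests and the alternatives were chosen with earlier results of these data known. Named are the 9 members, of each list up to 6 genes that passed, by size of change (or, where none passed, the 2 with the largest change), the 5 genes nearest to NQO1 and every marker past the threshold. The isozymes of the 9 genes and MPO, PGLS, H6PD, SECISBP2, C1QB and CSF1R were added after their values were seen. List genes without a feature of their own symbol, such as PRDX5 and SOD2, are not analysed here. Alternatives were quantile normalization, median centring, a filter to genes brighter than the median, a variance trend (plain or robust), the replicate number as a block, all features, the dimmest feature of a gene, and leaving out each array.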

Additional observations from a re-analysis of the deposited data

How the results depend on the processing

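The number of genes past the threshold was 652, and it was 1185 with a variance trend, 1162 with a robust trend, 309 with a replicate block and 0 to 34 when 1 array was left out (1815 to 3017 at an unadjusted p under 0.05, limma). Among the 9 genes, 4 passed, against 0 to 1 with 1 array left out. PGD missed the threshold with the replicate block (adjusted p = 0.0562), TALDO1 (0.0548) passed with a variance trend (0.0162), a robust trend (0.0173) and above the median level (0.0308), and SRXN1 (0.0590) passed above the median level (0.0338). With 1 array left out the change of NQO1 ran from 3.64 to 4.72, of ME1 from 2.08 to 2.58, of TXN from 0.225 to 0.895 and of PRDX1 from 0.195 to 0.595. The thioredoxin partners gave 3 calls, and 6 with a variance trend and 6 with a robust trend. The other quinone and flavin reductases gave 0, and 2 with either trend. With the replicate block the other NADPH makers gave 0 calls (7 at an unadjusted p under 0.05, and 1 call with all features), the other pentose phosphate genes 1, the selenoprotein list 1 and the NRF2 list 4. Over all 17687 genes, 3543 had an unadjusted p under 0.05 in the limma fit with the block. With 1 array left out the NRF2 list gave 0 to 2 calls and each other list 0 (0 to 11 at an unadjusted p under 0.05). GPX3 had a change of 0 without DMSO replicate 2 and ran from 0 to 0.47. With fewer arrays, 1 residual degree of freedom remains, and the lone array of a group is assumed to vary like the others. The cause of the other differences was not tested. The replicate numbers are shared by both groups, but the labels tie them to no day or culture. Replicate 1 minus replicate 2 correlated between groups at r = 0.139 across genes, so the block is given here alone. With that block 13 of the named list and marker genes missed the threshold. Quantile normalization moved CD14 across the threshold and none of the 9 genes or the other named list and marker genes, and median centring moved none of them.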

Other observations

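In the list of other NADPH makers (15 genes measured), IDH1, the cytosolic isocitrate dehydrogenase gene, measured 10.74 and 10.49 in MK-8776 cells, against 10.00 and 9.85 in DMSO cells. It did not pass (change 0.69, adjusted p = 0.127, limma), while its mitochondrial relative IDH2 fell. NNT, the mitochondrial transhydrogenase gene that makes NADPH from NADH, was at -0.89 (adjusted p = 0.0686, limma), with 10.27 and 10.49 in MK-8776 cells, against 11.13 and 11.41 in DMSO cells. TXNIP, whose protein binds thioredoxin, was at -0.815 (adjusted p = 0.121, limma), with 13.92 and 14.43 in MK-8776 cells, against 14.85 and 15.13 in DMSO cells. RRM1, which encodes the large subunit of ribonucleotide reductase, an enzyme that thioredoxin reduces, was at -0.96 (adjusted p = 0.0678, limma), with 12.20 and 12.65 in MK-8776 cells, against 13.28 and 13.49 in DMSO cells. The glutathione reductase gene GSR, which does for glutathione what TXNRD1 does for thioredoxin, measured 11.30 and 11.01 in MK-8776 cells, against 11.15 and 11.03 in DMSO cells, so its groups overlapped. These genes were chosen after their values were seen.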
